A study of Rattus with 18 samples.

Results

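The comparison set the glomerular RNA of rats killed on day 5 after an injection of anti-Thy1 antibody against that of rats given saline. It rests on 6 of the 18 microarrays of the series, the 3 whose titles name the anti-Thy1 model killed at day 5 and the 3 titled as normal controls (day 0). All rats were of the SD strain and weighed 200 g. Of these rats 30 received the antibody and 6 received saline, and glomeruli were taken from 6 rats at each of 6 time points, 3 glomeruli from each rat. From each RNA sample, 1.65 µg was amplified, labelled with Cy3 and hybridised to a one-colour Agilent rat array. The replicates carry the numbers 2, 4 and 5 at both time points. The labels do not say which rats stand behind an array, so the p-values measure the spread between arrays, which may be partly technical. That spread is pooled over all 18 arrays of the 6 time points, except where a fit on 6 arrays is named.

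Thy1 is a surface protein that rat mesangial cells, the contractile support cells between the glomerular capillaries, carry and that other glomerular cells largely lack. An antibody against it fixes complement and lyses mesangial cells within hours to days. Surviving and incoming cells then divide, take on smooth muscle features and lay down matrix, monocytes and macrophages enter, and the lesion later resolves. Podocytes cover the outer side of the capillaries and fenestrated endothelium lines the inside, and neither is the direct target of the antibody. In bulk RNA from glomeruli, fewer cells of a type and less RNA per cell cannot be told apart.

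Values are log2 processed signals minus the 75th percentile of the array, so a value of 0 is the brightness of the 75th percentile and a difference of 1 is a doubling. The level of 1 probe is not compared with that of another. The 75th percentile of the processed signal was 181 to 229 on the control arrays and 252 to 336 on the day 5 arrays. Of 41012 probes, the number well above background ranged from 26092 to 28530, and none was saturated. All 3 control arrays lay on 1 slide with an array of day 1, and all 3 day 5 arrays lay on another slide with an array of day 3, with the same scan day for both slides. The groups shared no slide, so slide and group cannot be told apart from these 6 arrays alone. The tissue label was checked against marker genes. The podocyte gene Podxl lay at 6.94 to 7.94 on the 6 arrays and Nphs1, which encodes nephrin of the slit diaphragm, at 4.34 to 5.32. The proximal tubule gene Fbp1 lay at 8.54 to 9.47, so RNA of tubules was present on every array.

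Within each group 1 array stood apart. Replicate 5 of day 5 correlated with replicates 2 and 4 of its own day at Pearson r = 0.9698 and 0.9673 over the probes above background, against 0.9865 between replicates 2 and 4, and with the 3 arrays of day 3 at 0.9808 to 0.9871. Replicate 4 of the controls correlated with the other controls at 0.952 and 0.9583, against 0.9909 between those. These correlations are descriptions across probes, which are not independent replicates. Counts are therefore also given without each of these arrays.

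Of 23186 genes and transcripts tested, 10263 differed between day 5 and the controls at an adjusted p under 0.05 (limma's moderated test with Benjamini-Hochberg adjustment), which is 44.3% of those tested. Of them 4845 were higher on day 5 (20.9% of those tested) and 5418 were lower (23.4%), and the median change over all genes was 0.06. Without replicate 5 of day 5 the count was 8254 (35.6%), of which 7703 were among the 10263, with 4123 higher (17.8%) and 4131 lower (17.8%). Without replicate 4 of the controls it was 6515 (28.1%), with 2823 higher (12.2%) and 3692 lower (15.9%). With the slide as a fixed block, which links the slides only through the arrays of day 1 and day 3 that share them, 103 genes passed. A background correction by normexp, whose fit failed on replicate 5 of day 5 and on an array of day 1, left 55, and 10979 when these fits were replaced by the median fit of the other arrays. A fit on the 6 arrays alone left 4813. The share of higher genes among those that passed, 47.2% here, was 75.8% when each array was scaled to its median, 55.9% after quantile normalization and 19.1% when scaled to 12 reference genes, because these scalings moved the median of all genes to 0.49, 0.12 and -0.29. Changes below are on the 75th percentile scale and relative to that median of 0.06. The gene lists below hold named genes only, and of the 12278 genes with a current symbol 27.6% were higher and 15.5% lower, so this is the closer background for them. In each of the 35 lists more genes rose with arrays scaled to the median, and in none did more rise with the reference-gene scaling. Of all 23186 genes, 9582 rose and 3062 fell with arrays scaled to the median, and 4812 and 3803 after quantile normalization. With reference-gene scaling 1904 rose and 8061 fell, and in the fit on the 6 arrays alone 1403 and 3410. List counts under these settings are to be read beside these numbers. With normexp or the slide as a fixed block no list held more than 1 called gene. In 5766 genes (24.9%) all day 5 arrays lay above all controls, and in 6407 (27.6%) all lay below.

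**Figure D1:**
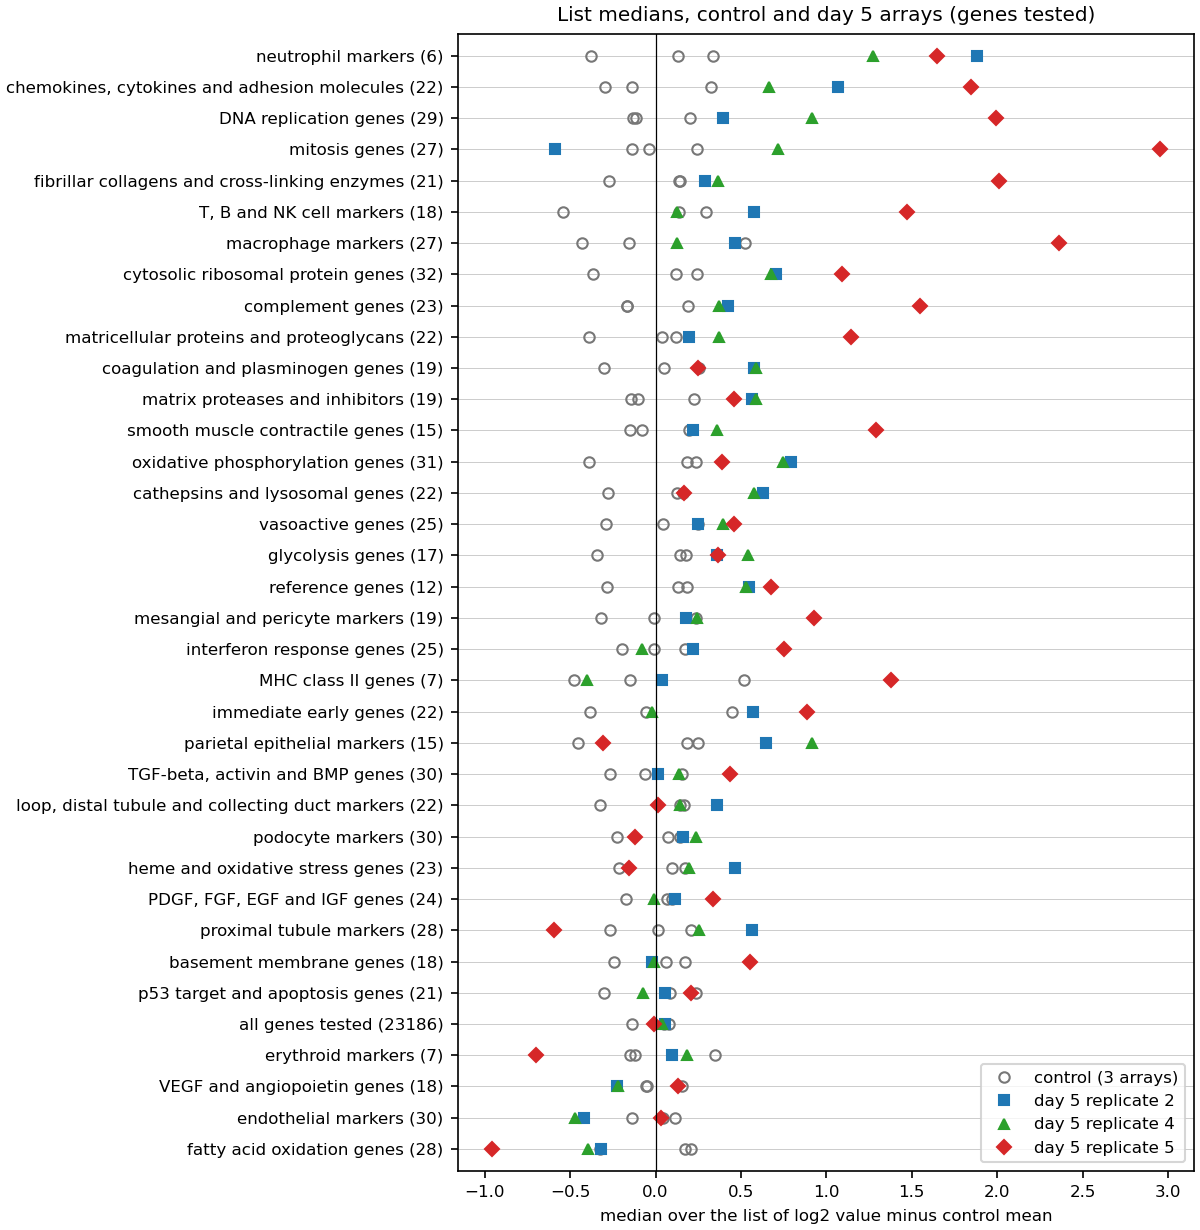
Median over the genes of each list of the log2 difference from the mean of the 3 controls, for 35 gene lists and all genes tested, with 1 point per array (3 control arrays, 3 day 5 arrays). Mitosis genes are at -0.59, 0.71 and 2.96 on the day 5 arrays, whereas ribosomal protein genes are at 0.71, 0.67 and 1.09.

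Few mesangial markers were called on day 5. Of 19 measured mesangial and pericyte markers 1 rose and 1 fell, 5.26% each against the 20.9% and 23.4% of all genes. Their median was 0.47, against 0.06 over all genes, and it was 0.18, 0.24 and 0.93 on replicates 2, 4 and 5. With arrays scaled to the median 8 rose and none fell (median 0.90), where 9582 of all 23186 genes rose and 3062 fell. With the slide as a fixed block the median of the list was 1.15. Neither call was kept without replicate 5 of day 5, and neither without replicate 4 of the controls, while 3 rose without replicate 2 of the controls and 2 without replicate 4 of day 5. Thy1 itself, the target of the antibody, was at -0.02, 0.46 and -0.70 in control replicates 2, 4 and 5 and at -1.23, -1.18 and 0.42 in day 5 replicates 2, 4 and 5. Replicates 2 and 4 of day 5 were below every control, and replicate 5 lay within the controls' range. The means were -0.09 ± 0.58 (SD, n = 3) and -0.66 ± 0.94 (SD, n = 3). The difference of -0.58 ± 0.59 (SE, as in all differences below) did not pass in limma's test (adjusted p = 0.44). Without replicate 5 the difference was -1.12 (adjusted p = 0.15), and with the slide as a fixed block it was 0.58. The array reads Thy1 with 1 probe of 60 bases, shown here because it is the readout of the targeted antigen, at chr8:47031186-47031646 (rn4, plus strand). The window spans 461 bases of the genome, so the probe crosses an intron and reads spliced RNA.
Thy1: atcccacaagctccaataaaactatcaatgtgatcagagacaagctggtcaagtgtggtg
Itga8, the integrin alpha 8 chain of mesangial cells, was the marker that fell, with -1.04, -0.23 and -1.84 in the controls and -2.08, -2.54 and -2.39 on day 5. All day 5 arrays were below all controls, by -1.30 ± 0.48 (adjusted p = 0.038, 0.082 without replicate 5 and 0.19 without replicate 4 of the controls). Cspg4, the NG2 proteoglycan of pericytes, was the marker that rose, by 0.99 ± 0.32 (adjusted p = 0.023, and 0.11 and 0.13 without these arrays). Pdgfrb, the receptor through which PDGF-B drives mesangial cell division, was at 1.89, 0.91 and 1.17 in the controls and 1.67, 1.22 and 2.50 on day 5, and its difference of 0.47 did not pass (adjusted p = 0.33).

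Contractile genes gave more rises than falls on day 5, mostly through replicate 5. Of 15 measured smooth muscle genes 6 rose (40% against 20.9% of all genes) and 2 fell (13.3% against 23.4%). The counts were 1 and 2 after quantile normalization, 2 and 2 with reference-gene scaling and 0 and 1 in the fit on the 6 arrays alone. The number that rose was 2 without replicate 5 of day 5, 1 without replicate 4 and 3 without replicate 5 of the controls. Tagln, an actin-binding protein of smooth muscle, was at -0.23, -0.53 and -0.38 in the controls and at 0.80, 1.45 and 4.75 on day 5. All day 5 arrays were above the controls and replicate 5 was far above the other two, so the difference of 2.72 ± 0.88 (adjusted p = 0.022) became 1.51 without it (adjusted p = 0.11, and 0.071 without replicate 4 of the controls). Tpm2, a tropomyosin, rose by 2.46 ± 0.90 and Myl9, a myosin light chain, by 2.11 ± 0.71, and both lost the call without replicate 5 of day 5 (adjusted p = 0.19 and 0.13) and without replicate 4 of the controls (0.12 and 0.10). Against these, Myh11, the smooth muscle myosin heavy chain, fell by 1.22 ± 0.17 (adjusted p = 0.00072), from 0.25 to 0.60 in the controls to -0.90 to -0.69 on day 5, with little spread in either group, although the probes of this gene differed in sign. Mylk, the myosin light chain kinase, fell by 0.72 (adjusted p = 0.027, and 0.055 without that control). The smooth muscle actin gene Acta2 was not analysed here.

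Matrix genes were the next group, and in it the 3 day 5 arrays did not move together. Of 21 measured fibrillar collagen and cross-linking genes 4 rose, which is 19.0% against 20.9% of all genes, and none fell; the median change of the list was 0.29 on replicate 2, 0.36 on replicate 4 and 2.01 on replicate 5. Without replicate 5 of day 5, and likewise without replicate 4 of the controls, 2 rose, whereas 8 rose without replicate 2 or without replicate 4 of day 5. It was 16 with arrays scaled to the median, 7 after quantile normalization, 2 with reference-gene scaling and 1 in the fit on the 6 arrays alone. Macrophage markers moved with the collagens, with a summed level of 102 and 77.6 on replicates 2 and 4 and 372 on replicate 5, against 57.4 to 99.7 in the controls. The part of those cells in the collagen values was not tested. Col3a1, the type III collagen chain, was at -1.23, -0.61 and 0.04 in the controls and at -0.18, 0.72 and 3.92 on day 5. Replicate 2 lay within the controls and replicate 5 far above, and the difference of 2.09 ± 0.81 (adjusted p = 0.048) was 0.87 without replicate 5 (adjusted p = 0.25, and 0.12 without replicate 4 of the controls). Col8a1, a short-chain collagen of vessel walls, had the largest rise of any gene with a current symbol whose arrays did not overlap, 4.00 ± 1.46 (adjusted p = 0.037), from -4.46, -4.03 and -4.39 to -1.72, -2.38 and 3.22. All day 5 arrays exceeded the controls, but without replicate 5 the difference was 2.24 (adjusted p = 0.19, and 0.087 without replicate 4 of the controls). P4ha1, which hydroxylates proline in procollagen, was even across the arrays, at -0.31, -0.78 and -0.33 and at 0.69, 0.53 and 0.81, and rose by 1.15 ± 0.18 (adjusted p = 0.00094). P4ha1 kept the call without replicate 5 of day 5 (adjusted p = 0.0051). Loxl3, a lysyl oxidase that cross-links collagen, rose by 1.34 ± 0.35 (adjusted p = 0.0078).

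Col1a1, the main chain of type I collagen, was at 1.76, -0.06 and 1.10 in the controls and at 0.44, 1.23 and 4.13 on day 5, a difference of 1.01 ± 0.99 that did not pass (adjusted p = 0.42). Replicates 2 and 4 of day 5 lay within the controls' range, and without replicate 5 the difference was -0.09. The array carries 3 Col1a1 probes. On a probe at chr10:83637956-83638015 the values were 1.01, 1.66 and 0.87 in the controls and -0.01, 0.33 and 2.45 on day 5, a difference of -0.25. On a probe at chr10:83637903-83637962 they were 1.10, 1.14 and 0.51, and 0.83, 0.80 and 2.12, a difference of 0.33. On each probe replicate 5 was the highest of the 6 arrays, so the high value of this array did not depend on the probe, whereas the sign of the mean difference did. These 2 probes are shown because their windows (rn4, plus strand) overlap by 7 bases, in capitals, at the end of the coding sequence. Within the overlap they differ by G4A, counted from 1 at the start of the overlap, with the base of the probe that starts at 83637903 given before the position.
Col1a1, probe at 83637903: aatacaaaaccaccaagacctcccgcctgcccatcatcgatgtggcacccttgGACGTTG
Col1a1, probe at 83637956: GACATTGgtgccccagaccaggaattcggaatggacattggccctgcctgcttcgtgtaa

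Of 18 measured basement membrane genes 1 rose and 2 fell, 5.56% and 11.1% against the 20.9% and 23.4% of all genes, both below the background. With arrays scaled to the median 7 of the 18 rose, where 9582 of all 23186 genes did. The falls were Col4a5 and Col4a3, collagen chains. Col4a5 was at 3.37, 4.79 and 3.53 in the controls and at 2.51, 2.69 and 2.37 on day 5, below all controls, and fell by 1.37 ± 0.30 (adjusted p = 0.0030). Col4a3 fell by 1.14 ± 0.27 (adjusted p = 0.0041). These chains, which podocytes are known to make, form the mature network of the capillary wall, and both kept the call without replicate 5 of day 5 and without replicate 4 of the controls (adjusted p from 0.0083 to 0.024). Col4a1, a chain of the mesangial and general basement membrane, was at 4.21, 3.60 and 3.91 and at 4.22, 4.21 and 5.35, and its difference of 0.69 did not pass (adjusted p = 0.071). Col15a1, a collagen at the outer face of basement membranes, rose by 1.35 ± 0.37 (adjusted p = 0.010, and 0.051 without either of those arrays).

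Among matricellular proteins and proteoglycans 3 of 22 rose and 1 fell, 13.6% and 4.55% against 20.9% and 23.4% of all genes, and with arrays scaled to the median 12 rose. Fn1, fibronectin, was at 2.53, 1.44 and 1.72 in the controls and at 2.67, 2.56 and 4.46 on day 5. Every day 5 array was above every control, replicates 2 and 4 only just, and the rise of 1.33 ± 0.47 (adjusted p = 0.031) was 0.72 without replicate 5 (adjusted p = 0.16, and 0.13 without replicate 4 of the controls). None of this list rose without replicate 4 of the controls, 1 rose without replicate 5 of day 5, and 5 rose without replicate 4 of day 5. Thbs1, thrombospondin 1, which can activate latent TGF-beta, fell by 2.00 ± 0.49 (adjusted p = 0.0056). Spp1, osteopontin, differed by 0.67 (adjusted p = 0.28). Among matrix proteases and inhibitors 5 of 19 rose and 1 fell (26.3% and 5.26%), and the counts were 11 and 0 with arrays scaled to the median and 2 and 5 with reference-gene scaling. Timp1, an inhibitor of matrix metalloproteinases, was at 2.57, 2.15 and 2.38 in the controls and at 3.1, 3.54 and 4.60 on day 5, above all controls, and rose by 1.38 ± 0.35 (adjusted p = 0.0066, and 0.032 without replicate 5). The number of proteases and inhibitors that rose was 1 without replicate 4 and 2 without replicate 5 of the controls, and it was 3 without replicate 5 of day 5, 9 without replicate 2 of the controls and 8 without replicate 4 of day 5.

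Genes of the TGF-beta, activin and BMP family were called in both directions. Of 30 measured genes 6 rose and 7 fell (20% and 23.3%), shares close to the 20.9% and 23.4% of all genes. Against the 27.6% and 15.5% of genes with a current symbol, the share that rose was lower and the share that fell higher. The counts were 6 and 6 without replicate 5 of day 5, 16 and 4 with arrays scaled to the median and 4 and 8 with reference-gene scaling. Grem1, gremlin 1, a secreted antagonist of BMPs, was at -0.75, -2.21 and -0.98 in the controls and at 1.69, 1.31 and 1.53 on day 5. The day 5 arrays lay close to each other and all above the controls, and the rise was 2.82 ± 0.48 (adjusted p = 0.0011, and 0.0055 without replicate 5). Fstl3, which binds activins, was at -2.36, -2.62 and -3.07 and at -1.29, -1.20 and -0.68, and rose by 1.62 ± 0.24 (adjusted p = 0.00078). Bambi, a decoy receptor, rose by 0.84 ± 0.29 (adjusted p = 0.030, and 0.17 without replicate 4 of the controls), and the ligand Bmp4 by 1.48 ± 0.31 (adjusted p = 0.0024). The ligand Tgfb1 was at -2.0, -2.78 and -2.23 and at -1.73, -1.93 and -0.76, and its difference of 0.86 did not pass (adjusted p = 0.076).

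Receptors were among the called genes too. Tgfbr3, the co-receptor betaglycan, was at 0.06, 1.32 and 0.75 in the controls and at -1.96, -1.09 and -2.26 on day 5, below all controls, and fell by 2.48 ± 0.43 (adjusted p = 0.0011). The activin and BMP receptors Acvr1 and Acvr2a fell by 1.36 ± 0.32 and 1.31 ± 0.27 (adjusted p = 0.0042 and 0.0021). Named after their values were seen, Tgfbr2 fell by 1.18 ± 0.26 (adjusted p = 0.0030), the inhibitory Smad6 by 1.12 ± 0.32 and the BMP target Id1 by 0.61 ± 0.21 (adjusted p = 0.011 and 0.029). Likewise Bmpr2 fell by 0.65 ± 0.25 (adjusted p = 0.045), and Bmpr1a, whose probes differed in sign, rose by 0.41 ± 0.15 (adjusted p = 0.034). Tgfbr3, Acvr1, Acvr2a and Tgfbr2 kept their calls without replicate 5 of day 5 and without replicate 4 of the controls. Smad6 lost it without that control (adjusted p = 0.058), and Bmpr2 without either array (0.075 and 0.15).

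Of 24 growth factor genes of the PDGF, FGF, EGF and IGF families 3 rose and 2 fell (12.5% and 8.33% against 20.9% and 23.4%). The counts were 12 and 1 with arrays scaled to the median and 1 and 6 with reference-gene scaling. Pdgfa, a ligand for the PDGF alpha receptor, was at 0.29, -0.26 and 0.19 in the controls and at 0.99, 0.95 and 1.65 on day 5, above all controls, and rose by 1.12 ± 0.22 (adjusted p = 0.0020, and 0.010 without replicate 5). Pdgfb, the main ligand of the beta receptor on mesangial cells, was at -1.53, -0.67 and -1.69 and at -2.93, -2.38 and -2.32, below all controls, and fell by 1.25 ± 0.35 (adjusted p = 0.011, and 0.021 without replicate 5). Thus the ligands differed in direction between these arrays. Pdgfb did not pass without replicate 4 of the controls (adjusted p = 0.069). Igfbp6, an IGF-binding protein, rose by 2.58 ± 0.91 (adjusted p = 0.032), from -4.33, -5.75 and -4.52 to -3.97, -3.37 and 0.49, and lost the call without replicate 5 (adjusted p = 0.15) and without replicate 4 of the controls (0.13). The number of the list that rose was 1 without replicate 4 of the controls, 5 without replicate 2 and 6 without replicate 5 of the controls.

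**Figure D2:**
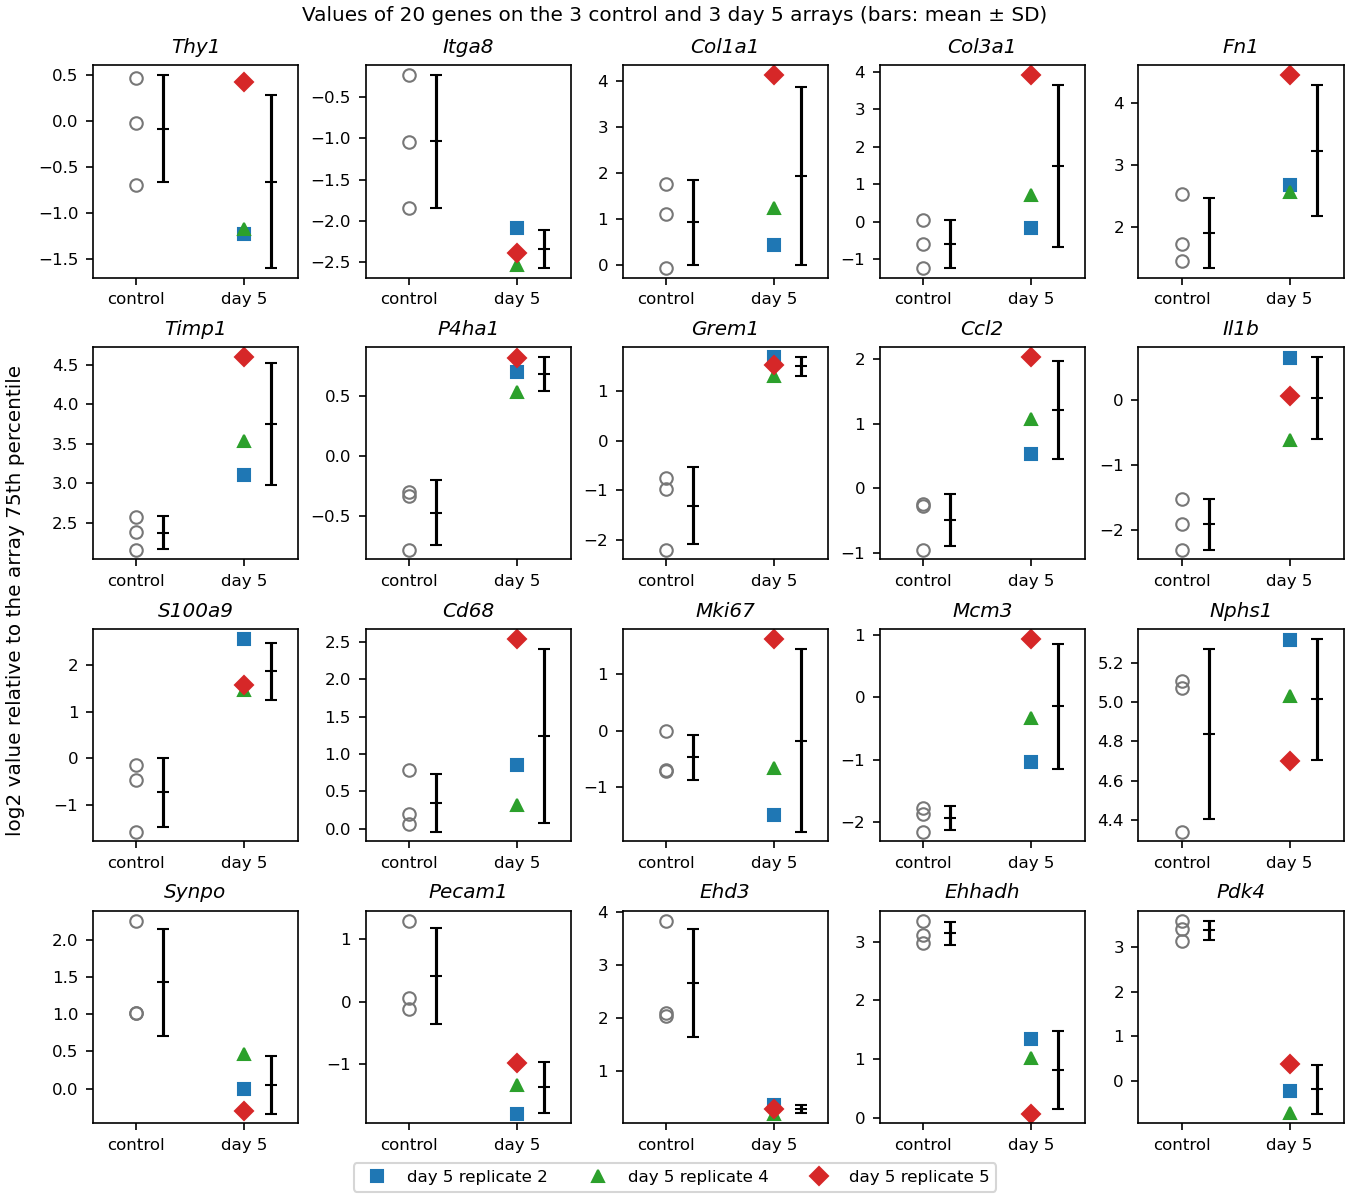
Log2 processed signal minus the array's 75th percentile for 20 genes in the 3 controls and 3 day 5 arrays, 1 point per array with replicate 5 of day 5 marked, and bars for mean ± SD (n = 3). Pdk4, Ehd3 and Grem1 show no overlap between groups, whereas in Col1a1 and Mki67 replicate 5 of day 5 is the single array above the controls.

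DNA replication genes gave more calls on day 5 than mitosis genes did. The median changes of both lists were close, 1.07 and 1.02. Of 29 measured replication genes 15 rose, 51.7% against 20.9% of all genes, and none fell; the median was 0.39 on replicate 2, 0.92 on replicate 4 and 1.99 on replicate 5. The number that rose was 5 without replicate 5 of day 5, 6 without replicate 4 of the controls and 10 without replicate 5 of the controls. It was 16 after quantile normalization, 7 with reference-gene scaling and 5 in the fit on the 6 arrays alone. Mcm3, which belongs to the helicase that opens replication origins, was at -1.78, -1.87 and -2.15 in the controls and at -1.04, -0.34 and 0.93 on day 5. All day 5 arrays were above all controls, in the order of replicates 2, 4 and 5, and the rise was 1.79 ± 0.52 (adjusted p = 0.013, and 0.066 without replicate 5). Mcm6, of the same helicase, rose by 1.64 ± 0.44 and kept the call without replicate 5 (adjusted p = 0.0093 and 0.046). Gins2, of the helicase activator complex, was not well above background on any control array and on 2 of 3 day 5 arrays, with means of -6.03 and -3.94, and was at least 1.62-fold higher (adjusted p = 0.0098), although its difference turned to -0.028 with the failed normexp fits replaced. Chek1, the checkpoint kinase of replicating cells, was among the 10 largest rises over all genes. It was well above background on no control array, and at -3.81, -3.19 and -1.46 on day 5 it was at least 3.52-fold higher (adjusted p = 0.00097).

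Of 27 measured mitosis genes 1 rose and 1 fell, 3.7% each, with a median change of 1.02. The list's medians on replicates 2, 4 and 5 of day 5 were -0.59, 0.71 and 2.96. Mki67, the proliferation marker Ki-67, was at 0.00, -0.71 and -0.69 in the controls and at -1.48, -0.66 and 1.63 on day 5, and its difference of 0.30 ± 0.68 did not pass (adjusted p = 0.74). Replicate 2 was the lowest of the 6 arrays and replicate 5 the highest. Replicate 5 had the highest value of the 3 day 5 arrays in 26 of the 27 mitosis genes and in 28 of the 29 replication genes. It did so in 7432 of all 23186 genes. Without replicate 2 of day 5, 11 mitosis genes rose, and without replicate 5 none rose and 2 fell, so the count for this list was set by which array was left out. Tpx2, a spindle assembly factor, rose by 1.52 ± 0.60 (adjusted p = 0.050, and 0.25 without replicate 5), and Kif11, a spindle motor whose probes differed in sign, fell by 0.92 ± 0.24 (adjusted p = 0.0075).

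Leucocyte markers differed by cell type in how they sat on the arrays. Of 27 measured macrophage markers 3 rose, 11.1% against 20.9% of all genes, and none fell. Replicate 5 was the highest of the 3 day 5 arrays in all 27, and the medians were 0.46, 0.12 and 2.36. Cd68, a lysosomal glycoprotein of macrophages, was at 0.79, 0.20 and 0.06 in the controls and at 0.86, 0.32 and 2.54 on day 5. Replicate 4 lay within the controls and replicate 5 well above, and the difference of 0.89 ± 0.56 did not pass (adjusted p = 0.20). The markers that rose were Tyrobp, an adaptor of activating receptors, Cd14, the co-receptor for endotoxin, and Spi1, the transcription factor PU.1. Cd14 was at 0.18, -0.40 and -0.14 and at 0.72, 0.79 and 1.60, above all controls, and rose by 1.16 ± 0.28 (adjusted p = 0.0054, and 0.028 without replicate 5). Tyrobp rose by 1.74 ± 0.55 (adjusted p = 0.020, and 0.10 without replicate 5) with probes that differed in sign. Spi1, not well above background on any control and on 2 day 5 arrays (means -5.45 and -4.31), was at least 1.25-fold higher (adjusted p = 0.039, and 0.16 without replicate 5), although its difference turned to -0.19 with the failed normexp fits replaced. The number of macrophage markers that rose was 1 without replicate 5 of day 5 or without replicate 4 or 5 of the controls, 8 without replicate 2 of the controls and 9 without replicate 4 of day 5. It was 13 with arrays scaled to the median and 6 after quantile normalization.

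Of 17 listed neutrophil genes 6 passed the filter on dim probes, and of these 3 rose and none fell. Without the filter 15 were tested, of which 3 rose (20%) and 1 fell, where 4167 of all 35041 genes rose and 6140 fell. The median of the list then turned from 1.46 to -0.03. With the failed normexp fits replaced the median was -5e-04, so no direction is given for the list. Among the 3 day 5 arrays, replicate 5 was the highest in only 1 of the 6 genes. S100a9, a subunit of calprotectin, was at -0.15, -1.57 and -0.46 in the controls and at 2.56, 1.46 and 1.56 on day 5. The groups did not overlap, and the rise was 2.59 ± 0.58 (adjusted p = 0.0035, 0.0098 without replicate 5 and 0.024 without replicate 4 of the controls). Its partner S100a8 was at -0.82, -2.19 and -1.32 and at 1.36, 0.68 and 0.52, and rose by 2.30 ± 0.57 (adjusted p = 0.0058). Camp, the cathelicidin of neutrophil granules, rose by 2.22 ± 0.78 (adjusted p = 0.032) and lost the call without replicate 5 of day 5 (0.076) and without replicate 4 of the controls (0.18). Of 18 measured T, B and NK cell markers 1 rose (5.56%), Cd79b, a chain of the B cell receptor, at 2.40 ± 0.62 (adjusted p = 0.0073). Named after its values were seen, it was well above background on 1 control and 3 day 5 arrays. Without replicate 4 of day 5, 3 of these markers rose, and 2 without replicate 2 of the controls.

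Chemokines, cytokines and adhesion molecules were higher on day 5. Of 22 measured genes 9 rose, 40.9% against 20.9% of all genes, and none fell, with a median of 1.36. The number was 17 with arrays scaled to the median and 4 with reference-gene scaling. Il1b, the cytokine interleukin 1 beta, was at -1.52, -1.91 and -2.30 in the controls and at 0.64, -0.61 and 0.05 on day 5, above all controls, and rose by 1.94 ± 0.33 (adjusted p = 0.0011). It kept the call without replicate 5 and without replicate 4 of the controls (adjusted p = 0.0055 and 0.0046). Cxcl10, an interferon-induced chemokine for T cells, was at -0.68, -0.85 and -0.85 and at 0.82, 0.75 and 1.79, and rose by 1.91 ± 0.43 (adjusted p = 0.0035). Ccl2, the monocyte chemoattractant MCP-1, was at -0.24, -0.96 and -0.29 and at 0.53, 1.07 and 2.04. All day 5 arrays were above all controls, and the rise of 1.71 ± 0.47 (adjusted p = 0.010) missed the threshold without replicate 5 (adjusted p = 0.052) and without replicate 4 of the controls (0.054). Sele, E-selectin of activated endothelium, was well above background on no control array and on every day 5 array (means -5.29 and -3.15) and was at least 2.80-fold higher (adjusted p = 0.018, and 0.064 without replicate 5). Of the 10 largest rises over all genes, Xcl1, the chemokine lymphotactin, was likewise not well above background in the controls and at least 3.51-fold higher (adjusted p = 0.00098). The number of the list that rose was 4 without replicate 5 of day 5 or of the controls, 5 without replicate 4 of the controls, 6 without replicate 2 of day 5 and 14 without replicate 2 of the controls.

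Complement genes rose in 10 of 23 measured members, 43.5% against 20.9%, and none fell. C3, the central component, was at -1.01, -2.01 and -1.79 in the controls and at -0.17, -0.81 and 0.20 on day 5, above all controls, and rose by 1.35 ± 0.35 (adjusted p = 0.0076, and 0.036 without replicate 5). C5ar1, the receptor for the chemoattractant C5a, rose by 1.64 ± 0.49 (adjusted p = 0.015, and 0.079 without replicate 5), and C6, a component of the membrane attack complex, by 1.46 ± 0.48 (adjusted p = 0.022). Regulators were among the 10 too: named after their values were seen, Cfi rose by 1.34 ± 0.28 and Serping1 by 0.85 ± 0.23 (adjusted p = 0.0025 and 0.0084), and Cr1l, the rodent regulator Crry, by 0.71 ± 0.19 (adjusted p = 0.0083). The number that rose was 6 without replicate 5 of day 5, 5 without replicate 4 of the controls, 3 with reference-gene scaling and 4 in the fit on the 6 arrays alone. Interferon response genes gave 2 rises in 25 (8.0%), among them Tap2, a peptide transporter, by 0.79 ± 0.26 (adjusted p = 0.026, and 0.11 without replicate 5 of day 5). Without replicate 2 of day 5, 4 of the interferon genes rose, and 1 did without replicate 2 or 4 of the controls or replicate 5 of day 5. Of 7 MHC class II genes 1 rose and 1 fell (14.3% each), and no such gene was called in either direction without replicate 4 of the controls.

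Podocyte genes were called in both directions. Of 30 measured markers 4 rose and 6 fell, 13.3% and 20% against 20.9% and 23.4% of all genes. Of genes with a current symbol 27.6% rose and 15.5% fell. The counts for the list were 14 and 3 with arrays scaled to the median. Their median was 0.18, which turned to -0.13 under quantile normalization and to -0.18 when scaled to the reference genes. Nphs1 was at 5.11, 4.34 and 5.07 in the controls and at 5.32, 5.03 and 4.70 on day 5, and its difference of 0.18 ± 0.21 did not pass (adjusted p = 0.50). The groups overlapped. Synpo, synaptopodin of the foot process cytoskeleton, was at 1.02, 2.25 and 1.02 in the controls and at -0.01, 0.46 and -0.30 on day 5, below all controls, and fell by 1.38 ± 0.33 (adjusted p = 0.0045, 0.022 without replicate 5 and 0.023 without replicate 4 of the controls). Lmx1b, a podocyte transcription factor, fell by 1.19 ± 0.24 (adjusted p = 0.0021) and Magi2, a scaffold of the slit diaphragm, by 0.97 ± 0.21 (adjusted p = 0.0026). Cdkn1c, the cell cycle inhibitor p57 of resting podocytes, rose by 0.74 ± 0.20 (adjusted p = 0.0082) and Mme, a surface peptidase, by 1.03 ± 0.31 (adjusted p = 0.017, and 0.087 without replicate 4 of the controls). Rab3b, not well above background in any control and in every day 5 array (means -6.16 and -4.35), was at least 1.22-fold higher (adjusted p = 0.0052), although its difference turned to -0.18 with the failed normexp fits replaced. Without replicate 4 of the controls 2 rose and 4 fell, and without replicate 5 of day 5 the counts were 6 and 4.

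Of 30 measured endothelial markers 5 fell and none rose, and single genes among them fell clearly. The share that fell was 16.7%, against 23.4% of all genes and 15.5% of genes with a current symbol, so it was near the closer background. With arrays scaled to the median 4 rose and 4 fell, with reference-gene scaling 12 fell, and the median of -0.29 turned to 0.14 when arrays were scaled to the median and to 0.05 with the slide as a fixed block. Ehd3, which marks glomerular endothelium, was at 2.04, 3.83 and 2.10 in the controls and at 0.35, 0.19 and 0.28 on day 5. The day 5 arrays lay within a narrow range below every control, and the fall was 2.39 ± 0.39 (adjusted p = 0.00097). Pecam1, the junction protein CD31, was at 0.06, 1.29 and -0.12 and at -1.79, -1.33 and -0.99, and fell by 1.78 ± 0.35 (adjusted p = 0.0019). Tek, the angiopoietin receptor Tie2, fell by 1.26 ± 0.21 (adjusted p = 0.00097), and Flt1, a VEGF receptor, by 0.82 ± 0.20 (adjusted p = 0.0058). Of the defining markers Cdh5, VE-cadherin, and Kdr, the main VEGF receptor, did not pass, at -0.47 and -0.38 (adjusted p = 0.26 and 0.18). Ehd3, Pecam1 and Tek kept their calls without either of the arrays that stood apart (adjusted p from 0.0021 to 0.0086). Without replicate 5 of day 5, 2 rose and 8 fell.

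Of 18 angiogenic signals 4 rose and 3 fell, 22.2% and 16.7%. Beside these stood 20.9% and 23.4% of all genes, and 27.6% and 15.5% of genes with a current symbol. The counts were 7 and 2 with arrays scaled to the median and 2 and 7 with reference-gene scaling. Angpt2, which competes with Angpt1 for Tie2, was at 0.99, 0.55 and 0.88 in the controls and at 1.60, 1.88 and 3.25 on day 5, above all controls, and rose by 1.44 ± 0.43 (adjusted p = 0.016). Without replicate 5 it was 0.93 (adjusted p = 0.082, and 0.067 without replicate 4 of the controls). Esm1, a proteoglycan secreted by endothelium under VEGF, was at 0.59, 0.62 and 0.95 and at 2.28, 2.21 and 3.4, and rose by 1.91 ± 0.43 (adjusted p = 0.0037, and 0.020 without replicate 5). Vegfc rose by 1.30 ± 0.32 (adjusted p = 0.0054). Angptl4, a secreted inhibitor of lipoprotein lipase, fell by 2.89 ± 0.69 (adjusted p = 0.0049), from -0.14, 0.88 and 0.41 to -2.70, -2.37 and -2.44. In this list 2 rose without replicate 4 of the controls.

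Markers of the other epithelia were called in both directions. Against the 20.9% and 23.4% of all genes, 20% and 13.3% of 15 parietal epithelial markers were called (3 rose and 2 fell). The shares were 3.57% and 17.9% of the proximal tubule markers, and 18.2% and 22.7% of the distal ones. Of genes with a current symbol 27.6% rose and 15.5% fell. Cd44, a hyaluronan receptor of activated parietal cells and of leucocytes, rose by 1.49 ± 0.32 (adjusted p = 0.0028), Cd9 by 0.81 ± 0.17 (adjusted p = 0.0023), and Pax2, a parietal cell transcription factor, fell by 0.93 ± 0.20 (adjusted p = 0.0026). Of 28 proximal tubule markers 1 rose and 5 fell, and the median was 0.57, 0.25 and -0.59 on replicates 2, 4 and 5. Pck1, the gluconeogenic enzyme, was at 6.78, 6.13 and 6.97 in the controls and at 5.14, 3.94 and 3.23 on day 5, below all controls, and fell by 2.52 ± 0.57 (adjusted p = 0.0037). Cyp4a1, a fatty acid hydroxylase controlled by PPAR-alpha, fell by 2.29 ± 0.60 (adjusted p = 0.0075) and Slc22a8, an organic anion transporter, by 1.52 ± 0.38 (adjusted p = 0.0063). Gatm, of creatine synthesis, rose by 1.67 ± 0.38 (adjusted p = 0.0035). Without replicate 5 of day 5, 6 proximal tubule markers rose and 3 fell, and 3 fell without replicate 4 of the controls. Of 22 markers of the loop, distal tubule and collecting duct 4 rose and 5 fell. Hsd11b2 of the collecting duct rose by 1.39 ± 0.37 (adjusted p = 0.0080), whereas Kcnj10, a basolateral potassium channel, fell by 2.69 ± 0.57 (adjusted p = 0.0026). Of 7 erythroid genes 2 fell, among them Ahsp, the alpha globin chaperone, by 1.24 ± 0.35 (adjusted p = 0.011, and 0.057 without replicate 5). Of the distal markers 1 rose without replicate 4 of the controls and 2 without replicate 2 or replicate 4 of day 5. Of the erythroid genes none fell without replicate 5 of day 5, and 1 did without replicate 2 or 4 of the controls.

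Genes of fatty acid oxidation, most of them targets of PPAR-alpha, held large falls. Of 28 measured genes 9 fell, 32.1% against 23.4% of all genes, and 1 rose, with a median of -0.56 that stayed negative under every scaling tried. The number that fell was between 7 and 9 when any 1 of the 6 arrays was left out, and it was 6 with arrays scaled to the median and 19 after quantile normalization or reference-gene scaling. Pdk4, which blocks pyruvate dehydrogenase when fat is burned, was at 3.14, 3.41 and 3.58 in the controls and at -0.23, -0.71 and 0.39 on day 5, below all controls, and fell by 3.56 ± 0.89 (adjusted p = 0.0060). Ehhadh, a peroxisomal enzyme, fell by 2.34 ± 0.63 (adjusted p = 0.0087), and, named after its values were seen, Cpt1a, the gate of fatty acids into mitochondria, by 1.62 ± 0.34 (adjusted p = 0.0026). Creb3l3, a liver, gut and kidney transcription factor of lipid metabolism and one of the 10 largest falls over all genes, was at 1.94, 2.17 and 2.14 and at -3.78, -3.77 and -3.95, and fell by 5.92 ± 0.78 (adjusted p = 0.00063). Creb3l3 was also lower than the control mean by -5.98 on the array of day 1 that shared the controls' slide. The summed level of the proximal tubule markers, a cell type rich in these enzymes, was 1707 to 2393 in the controls and 2656, 2309 and 1386 on day 5. The part of tubule content in these falls was not tested.

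Many genes of respiration and of protein synthesis rose on this scale, by counts that depended on the scaling. Of 31 measured oxidative phosphorylation genes 19 rose, 61.3% against 20.9%, and 1 fell. The medians were 0.79, 0.75 and 0.39, and no gene of the list was highest in replicate 5; without that array 26 rose, and without replicate 4 of the controls 12 did. After quantile normalization 3 rose, with a median of 0.21, beside 4812 of all 23186 genes. With reference-gene scaling 7 did, with a median of 0.23, beside 1904 of all genes. In the fit on the 6 arrays alone 3 did, beside 1403. The count for respiration thus did not hold, and its share against all genes differed by setting. Ndufb5, a complex I subunit, was at 5.30, 4.56 and 5.29 in the controls and at 6.16, 5.98 and 5.89 on day 5, above all controls, and rose by 0.96 ± 0.20 (adjusted p = 0.0027). Ndufa2 rose by 0.95 ± 0.19 and Ndufa9 by 0.88 ± 0.20 (adjusted p = 0.0021 and 0.0038), whereas Ndufs1, the largest complex I subunit, fell by 0.97 ± 0.30 (adjusted p = 0.016, 0.079 without replicate 5 and 0.093 without replicate 4 of the controls). Of 32 cytosolic ribosomal protein genes 29 rose, 90.6% against 20.9%, none fell, and in 30 all day 5 arrays lay above all controls (24.9% of all genes). The list's median of 0.83 stayed positive under every scaling tried. Rps4x was at 4.40, 3.95 and 4.33 in the controls and at 5.33, 5.07 and 6.01 on day 5, above all controls. Rps4x and Rpl3 rose by 1.24 ± 0.24 and 1.24 ± 0.23 (adjusted p = 0.0017 and 0.0015). The number of ribosomal protein genes that rose was between 21 and 29 when any 1 of the 6 arrays was left out, 18 with reference-gene scaling, and 13 both after quantile normalization and in the fit on the 6 arrays alone. Ribosomal protein genes have many processed pseudogenes, so a probe can share sequence with copies. The reference genes of the list used for scaling moved too: 6 of 12 rose and 1 fell, with a median of 0.48, and Polr2a, the large subunit of RNA polymerase II, fell by 2.09 ± 0.33 (adjusted p = 0.00086). Of 17 glycolysis genes 5 rose and 1 fell (29.4% and 5.88%), with Pgk1 higher by 1.01 ± 0.20 (adjusted p = 0.0019) and Pfkl lower by 2.48 ± 0.37 (adjusted p = 0.00079). The number of glycolysis genes that rose was 3 without replicate 4 and 8 without replicate 2 of the controls, 14 with arrays scaled to the median and 1 with reference-gene scaling.

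Further lists are set against the 20.9% of all genes that rose and the 23.4% that fell. Of genes with a current symbol 27.6% rose and 15.5% fell. Of 22 cathepsin and lysosomal genes 8 rose (36.4%) and 1 fell (3 rose after quantile normalization, with reference-gene scaling or without replicate 4 of the controls, and 5 without replicate 5 of the controls or without replicate 2 of day 5). Lamp2, of the lysosomal membrane, rose by 0.95 ± 0.24 (adjusted p = 0.0065) and Cd63 by 0.79 ± 0.17 (adjusted p = 0.0028). Of 22 immediate early genes 5 rose and 3 fell (22.7% and 13.6%). Egr2, a serum-induced zinc finger factor, was well above background on no control and on every day 5 array (means -6.12 and -3.41) and was at least 2.34-fold higher (adjusted p = 0.0011), whereas Fosl2 fell by 1.93 ± 0.38 (adjusted p = 0.0018) and Fosb by 1.08 ± 0.26 (adjusted p = 0.0052). Of 23 heme and oxidative stress genes 5 rose (21.7%), among them Prdx1, a peroxidase, at 3.43, 3.48 and 3.48 in the controls and 5.21, 4.96 and 5.68 on day 5, by 1.82 ± 0.30 (adjusted p = 0.00098). Tfrc, the transferrin receptor, rose by 1.77 ± 0.30 (adjusted p = 0.0011), although its probes differed in sign. Of 21 p53 target and apoptosis genes 3 rose and 1 fell (14.3% and 4.76%), with Ccng1, cyclin G1, higher by 1.35 ± 0.20 (adjusted p = 0.00082) and Aen, a nuclease, lower by 1.29 ± 0.23 (adjusted p = 0.0013). Of 25 vasoactive genes 5 rose and 2 fell (20% and 8.0%). Ptges, a prostaglandin E synthase, rose by 0.91 ± 0.24 and its receptor Ptger4 fell by 0.93 ± 0.26 (adjusted p = 0.0080 and 0.011). Of 19 coagulation and plasminogen genes 4 rose (21.1%), with Tfpi, the inhibitor of tissue factor, higher by 0.88 ± 0.17 (adjusted p = 0.0016), again with probes of differing sign. As arrays were left out in turn, the number that rose ran from 2 to 10 for immediate early genes, with 2 without replicate 4 of the controls or replicate 2 of day 5 and 10 without replicate 4 of day 5. It ran from 2 to 9 for vasoactive genes, with 2 without replicate 4 of the controls or replicate 5 of day 5, 9 without replicate 2 of the controls and 8 without replicate 4 of day 5. It was 1 for coagulation genes without replicate 4 of the controls, and 3 for heme and oxidative stress genes without replicate 4 or 5 of the controls.

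The remaining genes of the 10 largest rises and falls were of other kinds. Rnase6, an antimicrobial ribonuclease of myeloid cells, rose by 2.63 ± 0.72 (adjusted p = 0.0095, and 0.054 without replicate 4 of the controls), C3h15orf48 by 2.82 ± 0.75 (adjusted p = 0.0084), and Mcpt9, a mast cell protease not well above background in the controls (means -6.14 and -3.38), was at least 2.39-fold higher (adjusted p = 0.025, 0.12 without replicate 5 of day 5 and 0.10 without replicate 4 of the controls). The falls were mostly of genes known from other tissues. Acrv1, a protein of the sperm acrosome, was at -0.06, 0.91 and -0.71 in the controls and at -7.17, -6.90 and -5.40 on day 5, well above background on no day 5 array, and was at least 33.5-fold lower. Lhx4, a pituitary homeobox factor, was at least 26.9-fold lower, the olfactory receptor gene Or4k5 at least 17.2-fold and Tmem54 at least 12.6-fold. Pla2g4b, a phospholipase, fell by 6.39, Or9i1b by 5.54, Foxe3, a lens factor, by 5.44, Or2d2b by 5.27 and Cst11, an epididymal cystatin, by 5.25. In the 10 genes as a set the median difference from the control mean was -6.03 on the array of day 1 that shared the controls' slide and 0.82 on replicate 4 of the controls. As a set the 10 were thus low on an anti-Thy1 array of that slide too, and the cause was not tested.

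The olfactory receptor family was chosen because members were among these largest falls, so its values are a description and carry no test. Of 158 measured members 106 were lower and 1 was higher, 67.1% lower beside the 23.4% of all genes, and 22 of the 158 were well above background on no day 5 array. Their median was -1.20, -1.24 and -1.32 on the day 5 arrays, -1.20 on the array of day 1 on the controls' slide and 0.65 on replicate 4 of the controls.

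**Figure D3:**
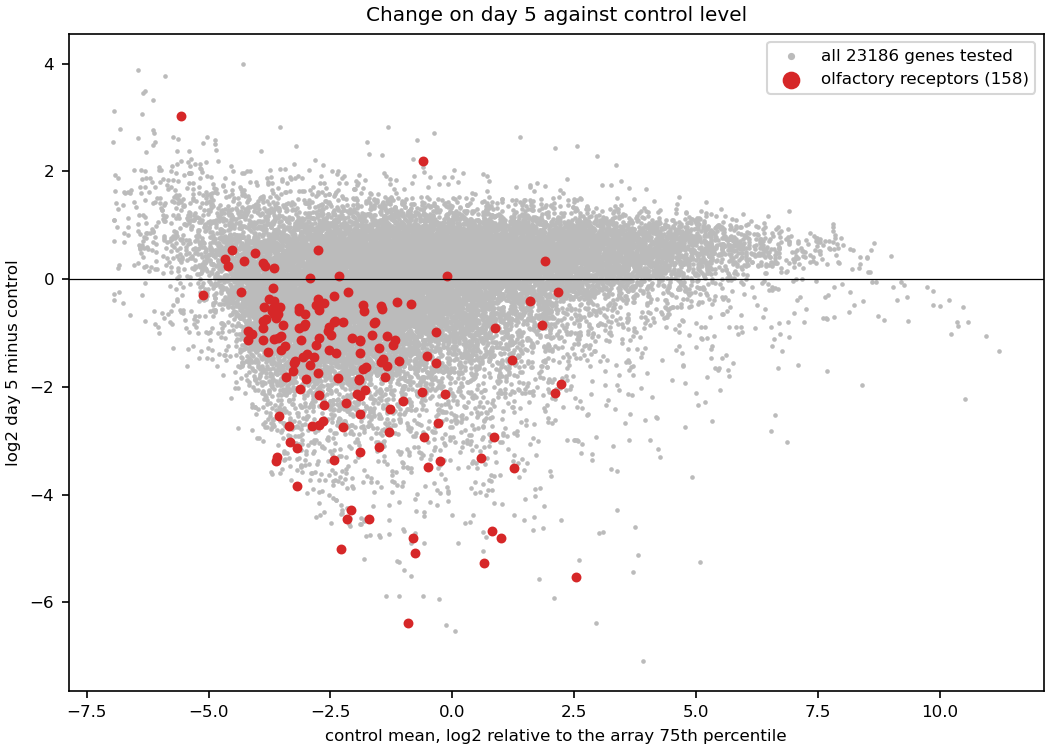
Log2 difference between day 5 and control means for each gene tested against its mean log2 level in the controls, relative to the array's 75th percentile, with the 158 olfactory receptor genes in red. Most red points lie below 0, and their median change is -1.18.

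Replicate 5 of day 5 differed most from replicates 2 and 4 in a small set of named genes. Furthest above in it, against the mean of the other two, were Col8a1 by 5.27, Trem2, a macrophage receptor, by 4.35, Cfd, complement factor D, by 4.30, the mast cell proteases Mcpt1 and Cma1 by 4.24 and 3.87, Igfbp6 by 4.17, the mitotic genes Ska1 and Ttk by 3.92 and 3.71, Tpm2 by 3.68 and Col3a1 by 3.65. Other mast cell genes differed in direction on that array. Cpa3, Mcpt9 and Kit were also above the same mean. Tpsab1 and Tpsb2, which encode tryptases, were at -0.39 and -0.36 against that mean. Furthest below were Kcnmb2, a subunit of calcium-activated potassium channels, by -4.03, Msmp by -2.78, the clock-controlled genes Dbp and Nr1d1 by -2.56 and -2.49, and Nmbr, Bpi, Mmp9, Tac4 and Prg4 by -2.55 to -2.08. These genes were chosen for the difference, which carries no test.

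**Figure D4:**
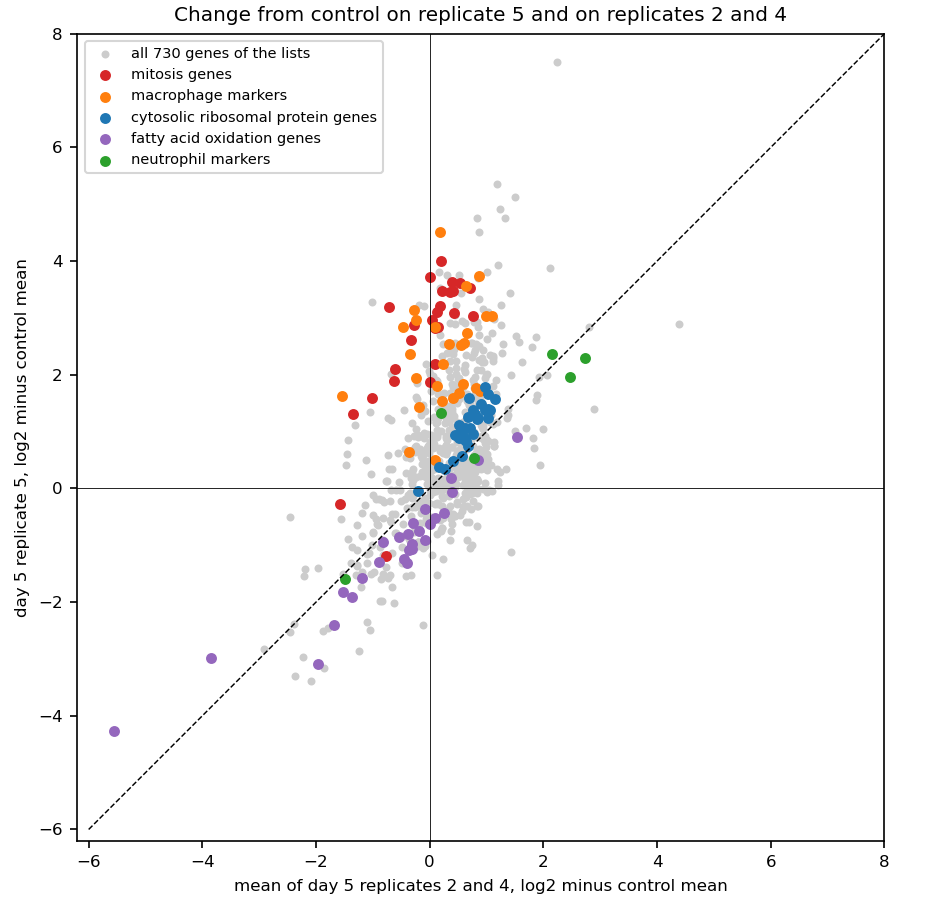
Log2 difference from the control mean on replicate 5 of day 5 against that on the mean of replicates 2 and 4, for the 730 distinct genes of the lists, with the line of equality dashed. Mitosis and macrophage genes lie mostly above the line.

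Against day 3, which shares the scan day, day 5 gave 2 genes at an adjusted p under 0.05 (0.00863%), 1 higher (0.00431%) and 1 lower (0.00431%), against 3064 at an unadjusted p under 0.05. Sult5a1, a sulfotransferase, was higher by 1.81 (adjusted p = 0.013), and the other was a transcript without a current symbol that was lower. Without replicate 5 of day 5, 919 genes passed (3.96%), 261 higher (1.13%) and 658 lower (2.84%). In that comparison of 2 arrays with 3, the spread of day 5 rests on 1 pair and on the other time points. Replicate 5 was also the array closest to day 3, so leaving it out widens the difference by its choice, and the counts that follow describe replicates 2 and 4 only. With all arrays no gene of the lists named next passed. Without replicate 5, of 27 mitosis genes 24 were lower than on day 3, of 27 macrophage markers 20, of 29 replication genes 9, of 25 interferon genes 8, of 23 complement genes 8 and of 7 MHC class II genes 4. Mitosis genes were at a median of 3.53, 3.11 and 2.60 above the controls on the day 3 arrays, and at -0.59, 0.71 and 2.96 on day 5, so replicate 5 lay within the range of day 3 and the other two below it. Macrophage markers were at 2.61, 2.49 and 3.11 on day 3 and 0.46, 0.12 and 2.36 on day 5. There replicate 5 lay just below the range of day 3 and replicates 2 and 4 far below it. Without replicate 5, the largest fall from day 3 was that of Upk3a, by 6.98. Other large falls included Il1rl1, the receptor of interleukin 33, by 6.33, Fcna, a ficolin, by 6.05 and Hpgds, a prostaglandin D synthase, by 5.67. Mmp12, the macrophage elastase, fell by 4.89 and Gpnmb, of lipid-laden macrophages, by 4.61. Of the 3 day 5 arrays, Upk3a and Hpgds were well above background on 1, Il1rl1, Fcna and Mmp12 on 2, and Gpnmb on 3. Apart from that of Gpnmb, the sizes of these falls thus rest partly on values near background. With all arrays none of these 6 genes passed (adjusted p from 0.14 to 0.23). On replicate 4 of day 3, which lay on the slide of the day 5 arrays, the medians were 2.60 for mitosis genes and 3.11 for macrophage markers.

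**Figure D5:**
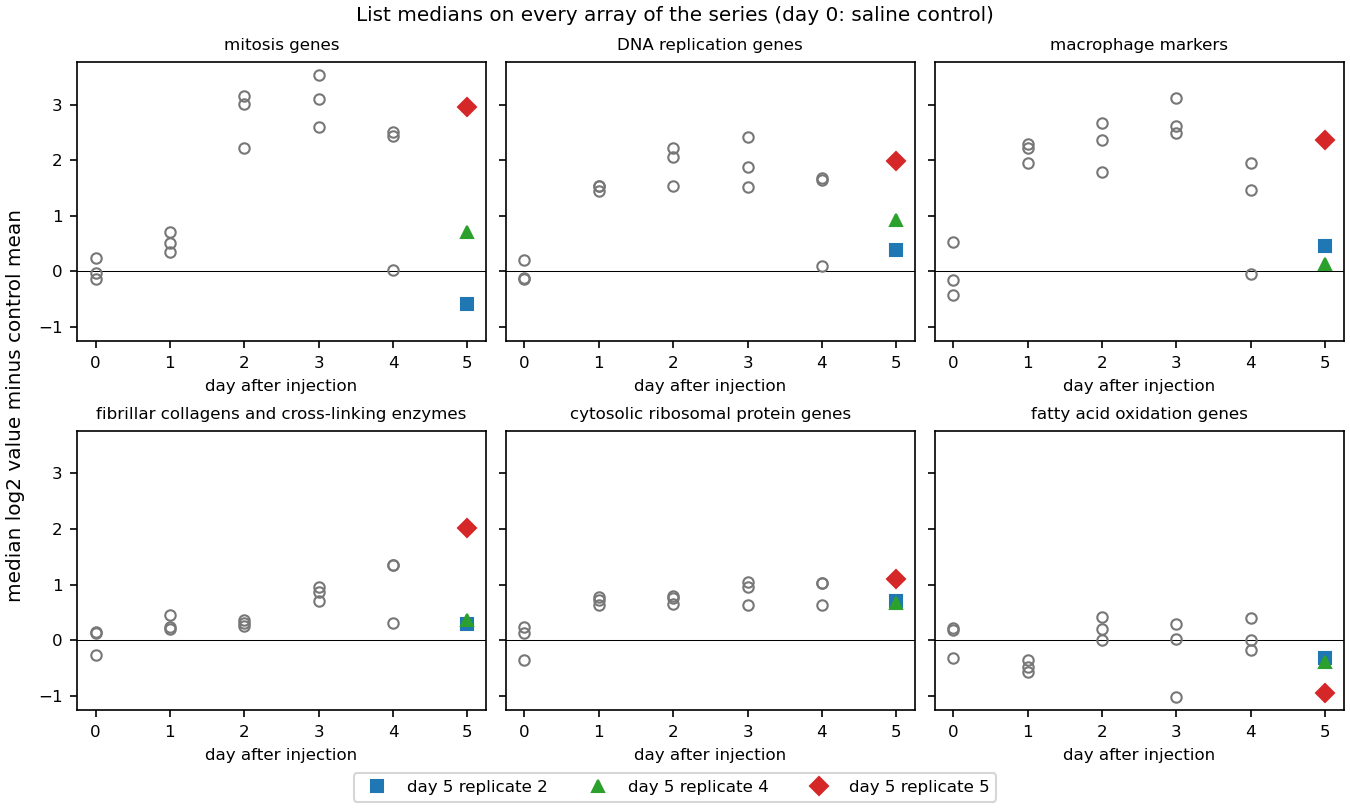
Median log2 difference from the control mean for 6 gene lists on days 0 to 5, 1 point per array (3 per day). On day 5 the mitosis list spreads from -0.59 to 2.96 and the macrophage list from 0.12 to 2.36, whereas ribosomal protein genes lie between 0.67 and 1.09.

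Against day 4, scanned on another day, 643 genes passed (2.77%), 165 higher (0.712%) and 478 lower (2.06%). With reference-gene scaling the balance turned, to 1001 higher and 397 lower (71.6% higher among those that passed, against 25.7% here). The count was 220 without replicate 3 of day 4, 237 and 248 without replicate 4 or 2 of day 5, 292 and 303 without replicate 2 or 1 of day 4, and 27 with the replicate number as a block. Scan day and time point cannot be told apart in this comparison. Of the 28 fatty acid oxidation genes 4 were lower than on day 4. Ccl20, a chemokine for lymphocytes and dendritic cells, was lower by -4.45 (adjusted p = 0.0018). Krt72, a hair root keratin, was lower by -5.14, the ribosomal gene Rps26 by -4.61 and the pseudogene Rpl36al-ps5 by -3.72. Fgf17, Ucn, Prrt2, Neurog3, Nr1d1 and Dlx2 were higher than on day 4 by 3.58 to 2.70, and none of these 6 was called against the controls. No mitosis gene or macrophage marker passed. On replicate 1 of day 4 the medians of these lists were 0.03 and -0.06, against 2.44 and 2.50, and 1.95 and 1.46, on the other day 4 arrays, so day 4 too held 1 array far from its pair.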

How the data were processed

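Glomerular RNA of 18 samples was hybridised to one-colour Agilent arrays (design 014879, probes placed on rat build rn4), and spots were read with Feature Extraction 10.7.3.1, per the file headers. The authors deposited each array's processed intensity, background-subtracted by that software per the file headers, and a value table of log2 values whose columns have medians of 5.49 or 5.31 and the same ranks as the processed intensity. That table was used as an alternative, and how its columns were centred stays unknown. From the processed intensity, log2 values were computed and lowered by the log2 of each array's 75th percentile, taken over spots that are not controls, with 57 values missing. A probe was kept where it was well above background on all arrays of at least 1 time point (27837 of 41012), and a gene took its probe of highest mean, giving 23186 genes and transcripts, 12278 with a current symbol. Differences were tested with limma 3.58.1 (lmFit, eBayes, R 4.3.3) over all 18 arrays with 1 mean per time point, and p-values were adjusted by Benjamini-Hochberg over all genes at 0.05. The steps were tested on simulated data. The 6 arrays and the 35 gene lists were chosen with earlier results of these data known. Named were up to 3 called members of each list with the largest rise and fall without overlap of the arrays, 17 fixed genes, the 10 largest rises and falls over all genes, the largest differences from days 3 and 4, and the genes furthest apart in replicate 5. Same-numbered replicates were not shown to be paired (correlations of deviations of 0.07, 0.26 and -0.03). Precision is limited by having 3 arrays per time point. Some genes that the rule names are not reported here.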

Additional observations from a re-analysis of the deposited data

How the results depend on the processing

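Against the controls, the count of 10263 became 55 with normexp, 103 with the slide as a fixed block and 4813 in a fit on the 6 arrays alone, and ran from 6515 to 10565 as single arrays were left out. Against day 3, the count of 2 became 1 under quantile normalization, reference-gene scaling, no filter, the 2 time points alone and the authors' deposited table, 28 with the slide fixed, 0 with normexp (limma, 1841 at an unadjusted p under 0.05) and 0 with the replicate block (2400 unadjusted), and ran from 0 to 919 with arrays left out; 0 was without replicate 4 of day 5 (1656 unadjusted). Against day 4, the count of 643 became 1398 with reference-gene scaling, 1 with normexp and 27 with the replicate block, and ran from 220 to 593 with arrays left out; with the slide fixed it could not be estimated. The replicate block gave 9054 against the controls.

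Nphs1 turned to -0.25 under quantile normalization, -0.18 with reference-gene scaling, -0.26 with normexp and -0.13 with the slide fixed, and ran from -0.075 to 0.33 with arrays left out. Mki67 turned to -0.063 and -0.070 with reference-gene scaling and normexp and ran from -0.61 to 0.95, and Col1a1 ran from -0.093 to 1.75. With the slide fixed Thy1 turned to 0.58, Cd68 to -0.20 and Spp1 to -0.20. With failed normexp fits replaced Gins2 turned to -0.028, Spi1 to -0.19, Rab3b to -0.18 and Avpr1a to -0.0022. The median of the neutrophil list turned to -0.031 without the filter and to -5e-04 with the fits replaced. The causes were not tested. Of 148 named genes the direction and the side of the threshold held in 148 with the slide as a random block (correlation -0.03), 131 with median scaling, 129 with quantile normalization, 115 with reference-gene scaling, 11 with normexp and 7 with the slide fixed. Without replicate 4 of the controls it held in 100. Without replicate 5 of day 5 the call was lost in 39, and the sign turned in 2 that had no call, Col1a1 and Mki67. Genes near background carry bounds and not levels.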

Other observations

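Of circadian clock and mast cell genes, all chosen after their values were seen, a few stood out on single arrays, whereas Bmal1 and Tpsb2 did not. Clock, Cry2, Npas2, Per1, Kit and Tpsab1 lay below all controls on all day 5 arrays. Dbp, a clock output factor, was at 0.61, -0.09 and 0.79 in control replicates 2, 4 and 5 and at 1.40, 3.17 and -0.27 on day 5, and Nr1d1, the clock repressor REV-ERB alpha, was at -2.34, -1.13 and -1.62 and at -1.87, -0.78 and -3.81. For both genes replicate 4 of day 5 was the highest and replicate 5 the lowest of the 6 arrays, and neither difference passed (adjusted p = 0.20 and 0.55). Clock fell by 1.38 ± 0.33 (adjusted p = 0.0046) and Cry2 by 1.11 ± 0.30 (adjusted p = 0.0090, and 0.050, just past the threshold, without replicate 4 of the controls). Nr1d2 fell by 1.39 ± 0.51 (adjusted p = 0.038, and 0.19 without replicate 5 of day 5 or without replicate 4 of the controls), and Bmal1 differed by 0.08 (adjusted p = 0.82). The labels do not give the hour of death.

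Among mast cell genes, Cpa3, a carboxypeptidase of the granules, was at -5.24, -5.91 and -6.80 in the controls and at -4.97, -5.18 and -1.73 on day 5, and Mcpt1 was at -2.86, -4.31 and -3.93 and at -3.58, -3.34 and 0.78. Replicate 5 of day 5 was the highest array for both, and neither difference passed (adjusted p = 0.13 and 0.22). Cpa3 was well above background on no control array and on 1 day 5 array, so its other values are not levels. Kit, the receptor that mast cells and some other cells carry, fell by 2.05 ± 0.40 (adjusted p = 0.0018) and the tryptase gene Tpsab1 by 1.41 ± 0.29 (adjusted p = 0.0024), each with all day 5 arrays below all controls.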
